A study of Homo sapiens with 27 samples.

Results

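The promyelocyte granule genes described here are 10 of the 58233 genes in each deposited gene table: MPO, ELANE, PRTN3, AZU1, CTSG, LYZ, CFD, SRGN, MS4A3 and RNASE2. They were picked by name as products or companions of the azurophil granule, the granule that neutrophil precursors build at the promyelocyte stage. The cells were HL-60, a long-established line from a human promyelocytic leukaemia, and the series held 27 libraries with 1 library per group. Untreated cells gave 1 library of total RNA and 1 of nascent RNA, the newly made fraction captured by click chemistry. Nascent RNA was further captured after the vehicle DMSO, after DRB at 100 µM and after actinomycin D (ActD) at 0.8 µM. The same 3 treatments, and cells labelled siNTC or siMyc, were used for chromatin immunoprecipitation (ChIP) with an antibody to H2A.Z, a histone variant, and another to acH2A.Z, its acetylated form. Untreated cells were used for RNA immunoprecipitation (RIP) with antibodies to H2A.Z, acH2A.Z and the acetyltransferase Tip60. Input DNA was sequenced for DMSO, DRB and ActD, and the 6 libraries made with IgG antibodies were not analysed here. How long the cells were treated is not given in the sources used here.

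Azurophil granules carry myeloperoxidase and a family of serine proteases that neutrophils release onto engulfed microbes, and their genes are switched on together in promyelocytes and switched off as the cell matures. DRB inhibits the kinase that lets RNA polymerase II leave the promoter region, and ActD binds DNA and stops polymerases. H2A.Z replaces H2A in nucleosomes beside gene starts, and its acetylated form is known from active promoters.

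The RNA libraries held between 12600067 and 25167597 expected counts, and the input libraries between 440923 and 469547. Mitochondrial genes took 45.9% to 66.5% of the counts in the DMSO, DRB and ActD nascent libraries, against 0.56% and 0.649% in untreated nascent and total RNA. A CPM value, the share of a library's expected counts on the usual per-million scale, depends on that share. A change in the total amount of nascent RNA between treatments cannot be read from CPM. Ratios are therefore repeated with the median gene set to 0 (centred) and on a library total that leaves out genes of mitochondria, ribosomal RNA and RNA polymerase III (rescaled). The genes so left out took 47.7%, 68.9% and 60.3% of counts under DMSO, DRB and ActD. In untreated nascent and total RNA they took 57% and 46.7%, nearly all of it outside mitochondrial genes. Of 9 markers of promyelocytes, 8 reached 1 CPM in every RNA library, ELANE being the exception. MPO, ELANE, PRTN3, AZU1 and CTSG on that list are also members of the set described here, and the rest are CD33, CSF3R, MYB and CEBPE. The list is therefore not separate from the genes described. The summed marker level of the lymphoid list was at most 1.18 CPM, of the monocyte list 2.72, of the megakaryocyte list 4.39, of the epithelial and fibroblast list 3.06 and of the erythroid list 7.23, with HBA1, HBA2, HBB, HBG1, CD3D, PF4, PPBP and EPCAM at 0 throughout. The eosinophil, basophil and mast cell list summed to between 65.5 and 352 CPM, nearly all of it PRG2, which reached 336 CPM. With 1 library per group a ratio compares libraries, not conditions, and every interval is a 95% interval that covers counting error only. In RNA from a whole culture, fewer cells making a transcript and less transcript per cell cannot be told apart.

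Of the 10 genes, 4 are consecutive protein-coding genes on chromosome 19 in RefSeq's annotation of GRCh38.p14, in the order AZU1 (chr19:827837-832018), PRTN3 (chr19:840999-848175), ELANE (chr19:852303-856243) and CFD (chr19:859664-863641), all on the plus strand. CTSG, a relative of the same protease family, lies on the minus strand at chr14:24573518-24576250, and RNASE2 on the plus strand at chr14:20955487-20956436. MPO lies at chr17:58269855-58280935 on the minus strand, LYZ at chr12:69348381-69354234, SRGN at chr10:69087603-69104811 and MS4A3 at chr11:60056665-60071115, all 3 of these on the plus strand.

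Promoter windows of 250 bases ending just before the RefSeq start were found for 6 of the 10 genes (PRTN3, AZU1, CTSG, CFD, MS4A3 and RNASE2), and none for MPO, ELANE, LYZ and SRGN. The 4 windows printed set a pair of genes under many peaks beside a pair of neighbouring protease genes under few or none. Peaks in 6 of the 10 ChIP lists overlapped the CTSG window, in 4 lists the RNASE2 window, in 2 lists the AZU1 window and in 0 lists the PRTN3 window. Each is given 5′ to 3′ on the strand of the gene from RefSeq, build GRCh38.p14, with capitals marking motif matches on either strand, for CTSG at chr14:24576251-24576500, RNASE2 at chr14:20955237-20955486, AZU1 at chr19:827587-827836 and PRTN3 at chr19:840749-840998.
CTSG: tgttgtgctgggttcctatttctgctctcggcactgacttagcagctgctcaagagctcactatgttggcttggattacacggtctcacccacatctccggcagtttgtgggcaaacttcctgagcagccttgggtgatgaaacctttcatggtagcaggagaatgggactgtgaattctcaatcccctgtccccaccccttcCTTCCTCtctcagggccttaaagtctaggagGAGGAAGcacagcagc
RNASE2: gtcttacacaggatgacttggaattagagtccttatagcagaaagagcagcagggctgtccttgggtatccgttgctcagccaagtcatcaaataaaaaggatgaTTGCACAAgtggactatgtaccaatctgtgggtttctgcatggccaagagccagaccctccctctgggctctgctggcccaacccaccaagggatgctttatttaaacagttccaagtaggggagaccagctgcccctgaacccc
AZU1: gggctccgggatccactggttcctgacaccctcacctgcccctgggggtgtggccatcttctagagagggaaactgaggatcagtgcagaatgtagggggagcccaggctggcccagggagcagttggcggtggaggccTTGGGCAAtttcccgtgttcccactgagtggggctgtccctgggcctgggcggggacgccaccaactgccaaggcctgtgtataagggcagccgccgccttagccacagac
PRTN3: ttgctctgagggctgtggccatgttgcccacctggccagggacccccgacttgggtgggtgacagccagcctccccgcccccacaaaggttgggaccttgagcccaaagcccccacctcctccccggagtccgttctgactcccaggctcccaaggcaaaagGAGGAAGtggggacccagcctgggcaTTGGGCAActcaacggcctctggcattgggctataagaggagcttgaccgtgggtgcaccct
The capitals mark TTGCNNAA, the letters bound by C/EBP factors, in RNASE2, AZU1 and PRTN3, and GAGGAAG, the letters bound by PU.1, in CTSG and PRTN3. AZU1 and PRTN3, neighbours on chromosome 19, carry the same 8 letters on the plus strand, TTGGGCAA, at 111 to 104 bases and at 62 to 55 bases before the start. CTSG holds GAGGAAG once on each strand, at 47 to 41 and at 16 to 10 bases before the start. TTGCNNAA was present in 4 of the 6 windows (PRTN3, AZU1, MS4A3 and RNASE2) and in 9.05% of 35116 RefSeq promoter windows of the same length, and GAGGAAG in 2 of 6 and 11.2%. The MYB letters TAACNG were in MS4A3 alone among the 6, against 17.6% of all windows. The RUNX letters TGTGGT, the E-box CACGTG and the TATA box TATAAA were in 0 of the 6, against 11%, 6.34% and 10.7% of all windows. Only these exact letters were searched. The AZU1 and PRTN3 windows hold TATAAG, which differs from TATAAA in its last letter and whose share of all windows was not computed. A match describes the letters of a window and was not set against any binding data.

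In untreated cells the 10 genes ranged from abundant transcripts to hardly any. MPO, the haem enzyme that makes hypochlorous acid, stood at 533 CPM in total RNA and 559 in untreated nascent RNA, and at 521, 361 and 492 CPM in nascent RNA under DMSO, DRB and ActD. Its level thus stayed within 361 to 559 CPM over all 5 libraries. PRTN3, proteinase 3, had 252 and 236 CPM in total and untreated nascent RNA, and 427, 237 and 388 under DMSO, DRB and ActD. CTSG, cathepsin G, had 101 and 102 CPM, and then 381, 140 and 360. SRGN, serglycin, the proteoglycan core on which granule proteases are packed, had 139 and 148 CPM, and then 246, 186 and 211. These 4 were the members above 100 CPM in total RNA, so the set as a whole was not one of very abundant RNAs.

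The other 6 were lower or absent. LYZ, lysozyme, which cuts bacterial cell walls, had 77.6 and 53.1 CPM in total and untreated nascent RNA, and 38.9, 8.51 and 8.73 under DMSO, DRB and ActD. AZU1, azurocidin, a protease relative without catalytic activity, had 66.3 and 55.2 CPM, and then 8.39, 11.4 and 5.48. CFD, complement factor D, a serine protease of the alternative complement pathway, had 48.8 and 46.8 CPM, and then 16.2, 19.5 and 66. AZU1 and CFD thus had fewer CPM in the DMSO, DRB and ActD libraries than in those of untreated cells, except for CFD under ActD. RNASE2, the eosinophil-derived neurotoxin ribonuclease, went from 4.71 and 13.5 CPM to 138, 36.9 and 88.5. MS4A3, a membrane protein of granulocyte precursors, had 37 and 33 counts (2.92 and 1.31 CPM) in total and untreated nascent RNA, 3 counts under DMSO, and 0 under DRB and ActD. ELANE, neutrophil elastase, the best known protease of the granule, had 4 counts in untreated nascent RNA and 0 in the other 4 RNA libraries, where the limit that a count of 0 allows was 0.208 to 0.238 CPM.

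**Figure D1:**
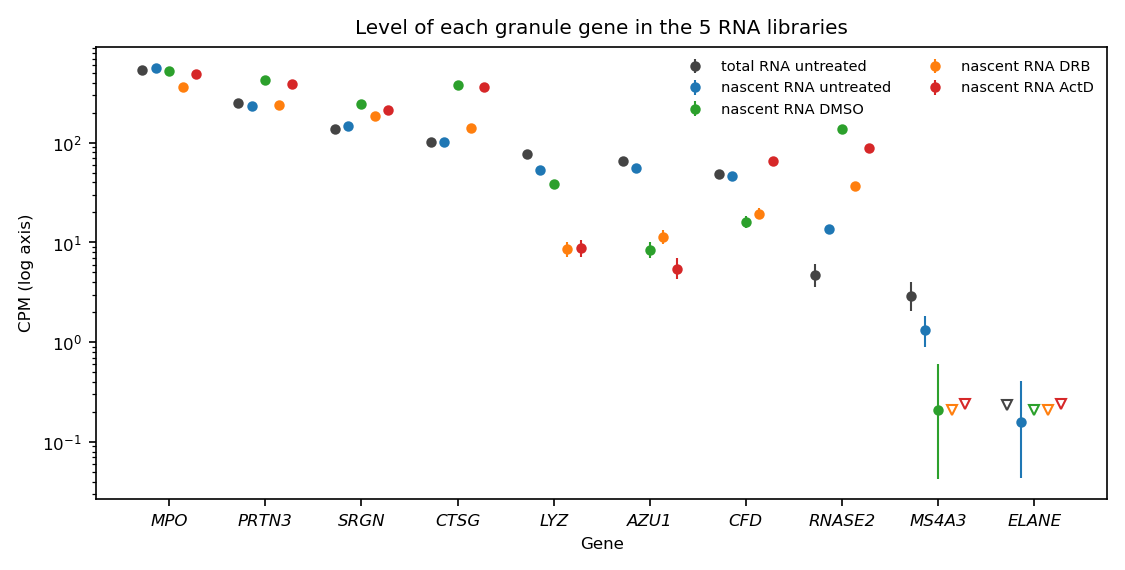
CPM of each gene (log axis) in the 5 RNA libraries, 1 point per library, with bars for the 95% counting interval and open triangles at the floor of 3 counts for a library with 0 counts. MPO stayed between 361 and 559 CPM, RNASE2 spread from 4.71 to 138, and ELANE had counts in untreated nascent RNA alone.

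Per length, on the authors' TPM scale, the order within total RNA was PRTN3 (61.9 TPM), MPO (49.9), SRGN (33.5), CTSG (26.4), LYZ (12), CFD (9.97), AZU1 (9.69), MS4A3 (1.82), RNASE2 (1.69) and ELANE (0). The counting intervals of CFD and AZU1 overlapped, as did those of MS4A3 and RNASE2, and those of the other neighbours down to MS4A3 did not. PRTN3 ranked 111 and MPO 146 among 11591 protein-coding genes above 0, while MS4A3 ranked 5799 and RNASE2 5999. In untreated nascent RNA MPO led with 49.8 TPM before PRTN3 with 46.4. Under DMSO the order changed to CTSG with 514 TPM and PRTN3 with 495, whose intervals overlapped, then SRGN with 299, RNASE2 with 235 and MPO with 170. Under DRB PRTN3 (246 TPM) led SRGN (203), CTSG (173), MPO (106) and RNASE2 (56). Under ActD it was CTSG (427 TPM), PRTN3 (391), SRGN (235), and then MPO (137) and RNASE2 (132) with overlapping intervals. By TPM MPO was thus the second of the members in total RNA and the fifth under DMSO. The authors' abundance-weighted length of its transcripts was 2429 and 2097 bases in total and untreated nascent RNA and 3208 to 3215 bases in the DMSO, DRB and ActD libraries. For LYZ that length was 1530, 1038, 1345, 805 and 971 bases in the same order of libraries.

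Nascent against total RNA, both from untreated cells, asks which transcripts are over- or under-represented among newly made RNA. Most of the granule genes had nearly equal CPM in both libraries. Ratios are log2 ratios of CPM with 1 CPM added, counted as higher or lower from 2-fold, and computed where a gene had a mean of 1 CPM and a sum of 20 counts. Of the 9 genes measured, 1 was higher in nascent RNA, against 9.50% of 13988 genes, and 0 were lower, against 17.8%. The higher one was RNASE2, at 1.34 with an interval of 1.11 to 1.93, 1.68 centred, but 0.84 on the TPM scale and 0.93 with 5 CPM added, both under 2-fold. MPO stood at 0.07, CTSG at 0.01, SRGN at 0.09, CFD at -0.06 and PRTN3 at -0.09, and centring on the median gene, which stood at -0.34, put these 5 at 0.25 to 0.43, while the TPM scale turned CTSG to -0.20 and SRGN to -0.19. LYZ stood at -0.54, MS4A3 at -0.76 and AZU1 at -0.26, of which AZU1 turned to 0.08 centred and MS4A3 came to -1.06 on the TPM scale, past 2-fold. The median of the 9 was -0.06, or 0.28 centred. Over all genes the split of higher to lower was 1329 to 2484, 1856 to 1434 centred, 1860 to 1935 rescaled and 377 to 2109 on the TPM scale. RNASE2 values are uncertain, because its expected counts were not whole in 4 of 5 RNA libraries and reads could be split between it and its close copy RNASE3, which ran from 0.725 to 26 CPM. ELANE had too few counts to be measured.

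The DMSO library serves as the control of both drugs, so its own distance from untreated nascent RNA was measured. RNASE2 and CTSG were higher under DMSO and AZU1 and CFD lower, and the other 4 measured members stayed within 2-fold on the CPM scale. RNASE2 stood at 3.26 with an interval of 3.19 to 3.52, which is 10.2-fold by CPM, and CTSG at 1.90 with 1.84 to 1.98, which is 3.75-fold. AZU1 stood at -2.58, which is 6.58-fold by CPM, and CFD at -1.48 with an interval of -1.74 to -1.33, but on the TPM scale these turned to 0.17 and 0.93. The TPM scale placed the median gene at 1.71, where the CPM scale placed it at 0.05, so both were below the median gene on either scale. Of the 8 genes measured 2 were higher, against 23.3% of 13714 genes, and 2 lower, against 24.5%. PRTN3 stood at 0.85, SRGN at 0.73, LYZ at -0.44 and MPO at -0.10, which on the TPM scale came to 3.39, 3.31, 1.58 and 1.75, so that 6 members were higher there and 0 lower. MS4A3, with 3 counts against 33, had a CPM ratio of 0.159 whose log2 interval ran from -5.01 to -0.98. Over all genes the split of higher to lower was 3200 to 3358 on the CPM scale and 9379 to 663 on the TPM scale. The shares of mitochondrial counts, 45.9% under DMSO and 0.56% untreated, moved with this comparison. So did the genes above 0, which were 16238 under DMSO and 33685 untreated. All genes left out when rescaling took 47.7% of counts under DMSO and 57% untreated. The part of each in this comparison was not tested.

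**Figure D2:**
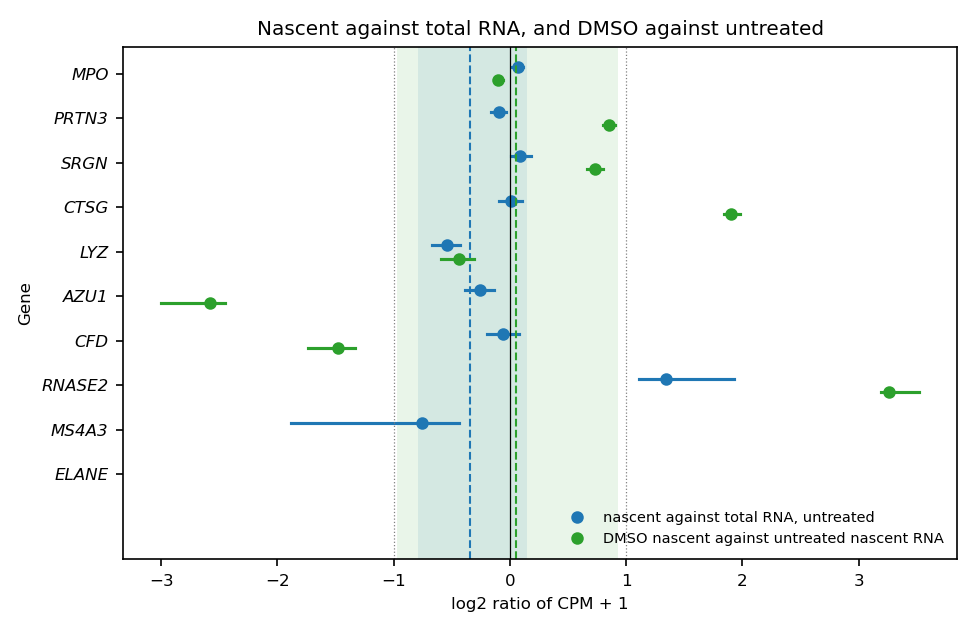
Log2 ratio of CPM + 1 for each gene measured, nascent against total RNA of untreated cells (blue) and DMSO against untreated nascent RNA (green), with 95% counting intervals as lines, the median of all genes dashed and their quartiles shaded. The blue points lie between -0.76 and 0.09 except RNASE2 at 1.34, and the green points run from AZU1 at -2.58 to RNASE2 at 3.26.

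DRB against DMSO asks how new RNA of these genes changed when elongation was held back. LYZ, RNASE2 and CTSG fell on the CPM scale, and the other 5 measured genes stayed within 2-fold, AZU1 and CFD among them with values above 0. LYZ went from 38.9 to 8.51 CPM, at -2.07 with an interval of -2.49 to -1.91, RNASE2 from 138 to 36.9 CPM, at -1.87 with -2.04 to -1.76, and CTSG from 381 to 140 CPM, at -1.44 with -1.52 to -1.37. Centred on the median gene, which stood at -1.32, they were at -0.75, -0.55 and -0.12, all within 2-fold. Rescaled they were at -1.41, -1.15 and -0.70. The 3 of 8 that fell compare with 57.4% of 12252 genes, and the 0 that rose with 9.62%. PRTN3 stood at -0.85, MPO at -0.53 and SRGN at -0.40, and centring turned these to 0.47, 0.79 and 0.92, while rescaling left PRTN3 at -0.10 and turned MPO to 0.22 and SRGN to 0.34. AZU1 at 0.41 and CFD at 0.26 went to 1.73 and 1.58 centred, past 2-fold, and AZU1 to -0.02 on the TPM scale. The median of the 8 was -0.69, or 0.63 centred, and MS4A3 and ELANE were not measured. Over all genes the split of higher to lower was 1179 to 7029, 3235 to 2848 centred and 2011 to 5468 rescaled.

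Under ActD the abundant granule genes had nearly the same CPM as under DMSO. CTSG, which fell under DRB, stood at 360 against 381 CPM, a log2 ratio of -0.08, MPO also at -0.08, PRTN3 at -0.14 and SRGN at -0.22. Centring on the median gene, at -1.17, turned these to between 0.95 and 1.09, past 2-fold for MPO, CTSG and PRTN3, and rescaling to between 0.18 and 0.32. CFD rose from 16.2 to 66 CPM, at 1.96 with an interval of 1.82 to 2.25 (3.14 centred, 2.39 rescaled). LYZ fell from 38.9 to 8.73 CPM, at -2.04 with -2.46 to -1.86 (-0.86 centred, -1.71 rescaled), close to its value under DRB, with which it shares the DMSO library. AZU1 stood at -0.54 and RNASE2 at -0.63, which turned to 0.64 and 0.54 centred and came to -0.20 and -0.24 rescaled. Of 8 genes measured 1 rose, against 15.9% of 12149 genes, and 1 fell, against 53.1%, with a median of -0.18, or 0.99 centred. Over all genes the split was 1933 to 6454, or 3879 to 3345 centred.

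**Figure D3:**
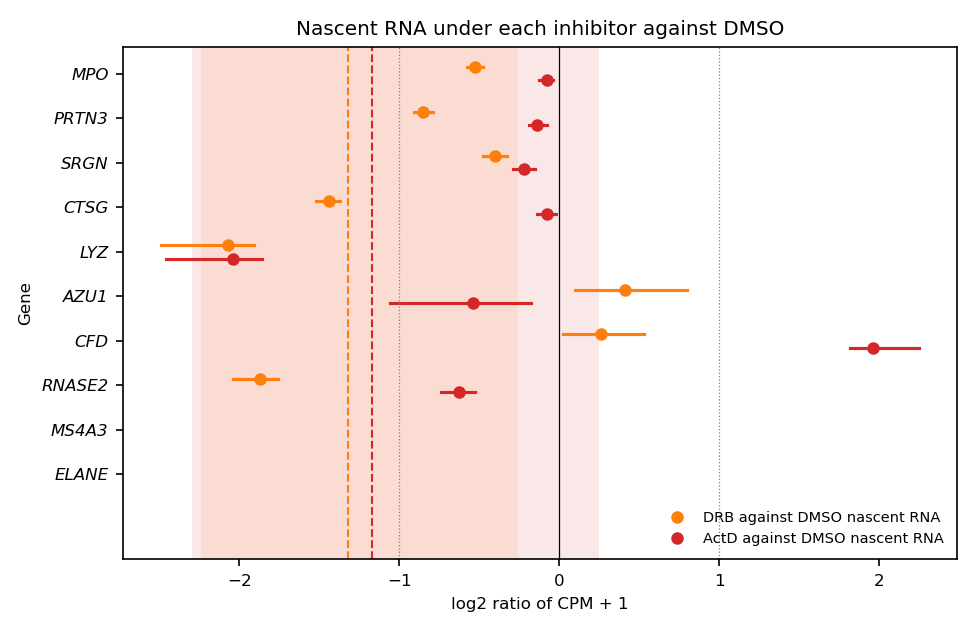
Log2 ratio of CPM + 1 for each gene measured, DRB (orange) and ActD (red) against the same DMSO nascent library, with 95% counting intervals as lines, the medians of all genes dashed (-1.32 and -1.17) and quartiles shaded. LYZ lies near -2 under both drugs, CTSG at -1.44 and -0.08, and CFD at 0.26 and 1.96, while MS4A3 and ELANE were not measured.

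Set directly against each other, the drugs differed by 2-fold in 3 granule genes, all higher under ActD than under DRB. CFD stood at 1.71 with an interval of 1.56 to 1.96, CTSG at 1.36 with 1.29 to 1.44 and RNASE2 at 1.24 with 1.11 to 1.41. RNASE2 came to 0.95 centred and 0.91 rescaled, just under 2-fold, while CFD and CTSG stayed past it. LYZ did not separate the drugs, at 0.03 with an interval of -0.35 to 0.42, which turned to -0.25 centred and -0.30 rescaled. PRTN3 stood at 0.71, MPO at 0.45 and SRGN at 0.18, the last turning to -0.10 centred. AZU1, at -0.94 with -1.49 to -0.65, came to -1.23 centred and -1.35 rescaled. The 3 of 8 that were higher compare with 38.0% of 10430 genes, and the 0 that were lower with 30.6%, around a median gene at 0.29.

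ELANE lay between 2 expressed neighbours, 4127 bases from PRTN3 and 3420 from CFD, and was the member without counts in input DNA. Its summed input count over the 3 libraries was 0, against 23 for MPO, 20 for MS4A3, 19 for CTSG, 18 for AZU1, 16 for LYZ, 13 for RNASE2, 9 for CFD, 8 for SRGN and 5 for PRTN3. Of 18234 protein-coding genes, 377 (2.07%) were also at 0 in all 3 inputs, and the median summed count was 34. The inputs are shallow, and what set the ELANE count to 0 in DNA and nearly so in RNA was not tested. PRSS57, another azurophil serine protease gene, had input counts of 0, 1 and 3 and at most 0.397 CPM of RNA.

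The peak lists ask which of these genes carried H2A.Z or acH2A.Z, and whether at the start or the end. A gene was counted where a deposited peak lay over it or within 1 kb, and a start or end peak is one within 1 kb of the annotated start or end. acH2A.Z under DMSO marked 5 of the 10 genes, MPO, AZU1, CTSG, SRGN and RNASE2, against 27.6% of 59665 annotated genes and 57.1% of the 20037 that code for protein, as all 10 do. Under DRB it marked 7 (PRTN3, CTSG, LYZ, CFD, SRGN, MS4A3 and RNASE2), against 34.2% and 66.8%, and under ActD 7 (MPO in place of PRTN3), against 30.0% and 57.8%. The counts of 5, 7 and 7 of 10 were thus near the shares of protein-coding genes. LYZ, CFD and MS4A3 thus had peaks under both drugs and none under DMSO, AZU1 had one under DMSO alone, PRTN3 under DRB alone and MPO under DMSO and ActD. Start peaks were present at 5, 7 and 6 genes under DMSO, DRB and ActD, against 37.8%, 43.0% and 36.7% of 27309 genes with a known strand, coding and long non-coding together. End peaks were present at 2 (CTSG and RNASE2), 1 (RNASE2) and 2 (CTSG and RNASE2), against 6.82%, 8.58% and 7.37%. RNASE2 is 950 bases long, so its start and end windows overlap, which leaves CTSG as the member with a separate end peak. With a fold over control of at least 8 in place of the deposited minimum of 4, the ActD count came to 4 genes, 3 of them with a start peak. The ActD peaks of LYZ, CFD and MPO, at folds of 6.15, 6.47 and 6.69, then dropped out. Of LYZ, CFD and MS4A3, only MS4A3, at 8.52, still had a peak under ActD. A window of 5 kb gave 7, 10 and 10 genes under DMSO, DRB and ActD, so ELANE was counted under both drugs. For ELANE that window reaches past the start of CFD, 3420 bases away, and takes in the CFD peaks under both drugs. The count of ELANE at 5 kb therefore cannot be told from that of CFD. The share of all genes was not computed for that window.

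SRGN carried the broadest acH2A.Z domain under DMSO, and its shape differed between lists. It was 8457 bases under DMSO, from 2412 bases before the start to 6045 after it, with 1376 tags or 163 per kb. Under ActD it was 10274 bases with 1169 tags (114 per kb), from 3007 before to 7267 after. Under DRB it was 4356 bases with 314 tags (72.2 per kb), from 3917 before to 439 after the start, and no peak was called further inside the gene. CTSG had a start peak of 2740 bases with 178 tags under DMSO, 4743 bases with 194 tags under ActD and 8267 bases with 714 tags under DRB, the last reaching from 7718 bases before the start to 549 after it. The CTSG start peaks ended 600 bases after the start under DMSO and 967 under ActD, so all 3 lay mostly upstream, whereas the SRGN peak did so under DRB and not in the other 2 lists. The CTSG peak at the gene end, 897 bases with 32.1 tags under DMSO and 1178 bases with 29.5 tags under ActD, was not called under DRB.

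RNASE2 had its widest acH2A.Z peak in the treatment with the lowest RNA of the 3. There were 2 peaks of 93.2 and 52.1 tags under DMSO, on either side of the gene start, with a gap from 194 bases before to 515 after it. Under DRB 1 peak of 11733 bases with 1164 tags (99.2 per kb) ran from 4822 bases before to 6911 after the start, and under ActD 1 peak of 6582 bases with 341 tags (51.8 per kb). The RNA of the gene was 138, 36.9 and 88.5 CPM in the same 3 treatments.

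MPO had an acH2A.Z peak that began 529 bases after its start and ran to 4371, with 326 tags over 3842 bases under DMSO. Under ActD 628 bases with 22.6 tags were called inside the gene, from 3055 to 3683, and under DRB none. MPO RNA was 521, 492 and 361 CPM in those treatments. PRTN3 had no peak within 1 kb under DMSO or ActD, at 427 and 388 CPM, and under DRB, at 237 CPM, a peak of 1757 bases with 82.8 tags from 2662 to 905 bases before the start and one of 500 bases with 11.9 tags just after it. Among 1030 protein-coding genes with at least 100 CPM of total RNA, 98.7% had an acH2A.Z peak under DMSO, and PRTN3 was 1 of the 13 without. Of the 4 members in that class 3 had one under DMSO, 3 under DRB (98.1% of the class; MPO was without) and 3 under ActD (92.5%; PRTN3 was without).

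LYZ, CFD, MS4A3 and AZU1 had acH2A.Z peaks of at most 80.4 tags under these treatments. LYZ, at 38.9, 8.51 and 8.73 CPM, had none under DMSO, 758 bases with 26.3 tags under DRB and 2308 bases with 80.4 tags under ActD, both over its start. CFD, at 16.2, 19.5 and 66 CPM, had none under DMSO, 2208 bases with 58.6 tags under DRB and 500 bases with 5.9 tags under ActD, so the library with most CFD RNA of these 3 had the smaller of its peaks. MS4A3, without counts under either drug, had peaks of 32.9 and 39.5 tags under DRB and of 12.2 tags under ActD near its start. AZU1 had 625 bases with 25 tags under DMSO from 17 bases before its start. ELANE had no peak over it or within 1 kb in any of the 13 lists. The numbers of peaks in the lists differed too, 17007 under DMSO, 29432 under DRB and 31240 under ActD, peaks were called per library, and the scale of the authors' tag counts is not stated, so tags of different lists are set side by side and not as ratios.

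**Figure D4:**
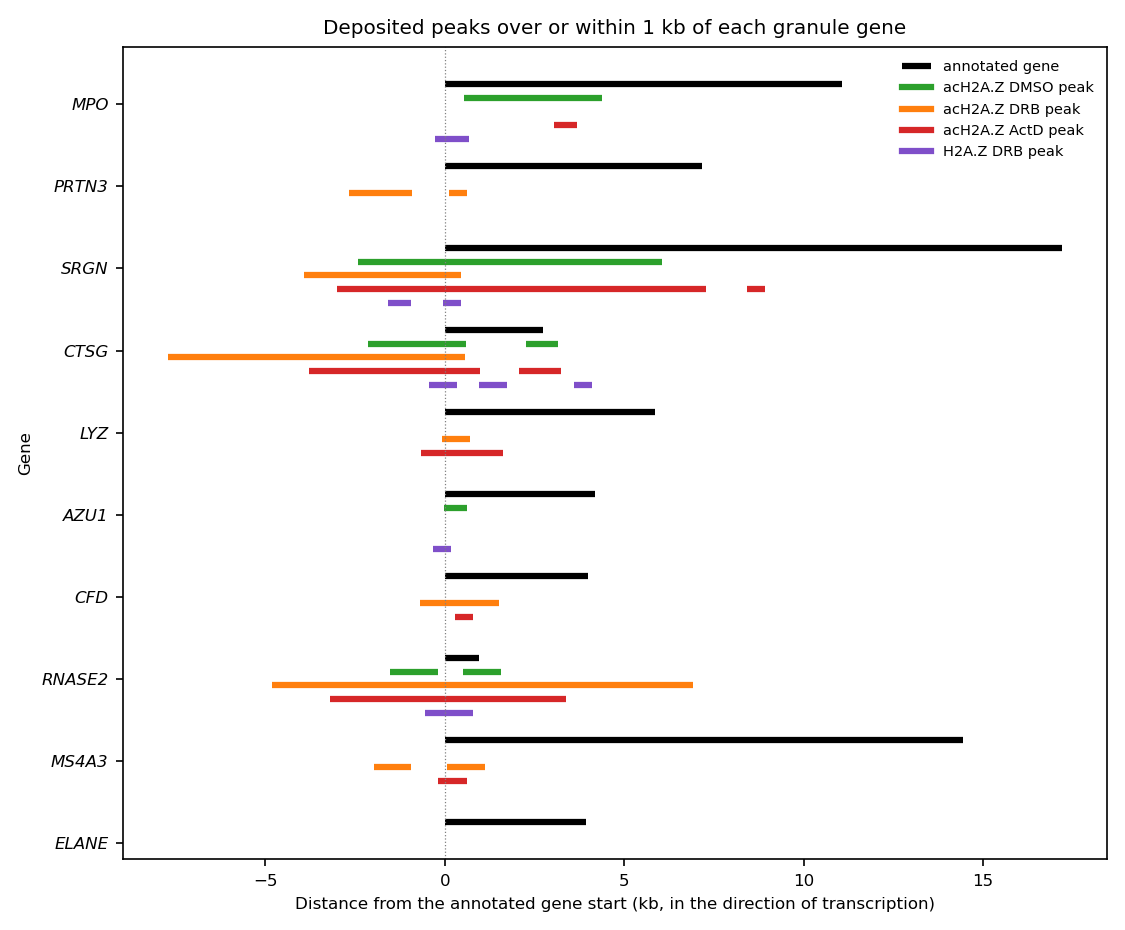
Peaks over or within 1 kb of each gene, by distance from the annotated start in kb in the direction of transcription, with the gene as a black bar and a coloured line per deposited peak. The SRGN peak ends 439 bases after the start under DRB (orange) and 6045 under DMSO (green), the CTSG start peak 549 and 600, while RNASE2 lies inside a DRB peak of 11733 bases and ELANE has none.

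The H2A.Z antibody gave peaks at these genes under DRB and none under DMSO or ActD. It marked 0 of 10 under DMSO (2.91% of all genes, 6.72% of protein-coding genes), 5 under DRB (6.98% and 14.7%) and 0 under ActD (9.41% and 17.1%), although the ActD list was the longest of the 3, with 17888 peaks against 1271 and 4191. Among protein-coding genes with at least 100 CPM of total RNA the shares were higher, 26.8%, 39.5% and 37.2% under DMSO, DRB and ActD. The 5 genes were MPO, AZU1, CTSG, SRGN and RNASE2, which are the 5 that acH2A.Z marked under DMSO. All 5 had a start peak (9.13% of genes with a known strand) and CTSG and RNASE2 an end peak (1.07%), of which 1 was left with end windows of 500 bases. These H2A.Z peaks were 500 to 1350 bases wide, beside a median of 629 bases over all peaks of the H2A.Z DRB list. MPO had 960 bases with 22.8 tags from 283 before to 677 after the start, and AZU1 500 bases with 11.6 tags. SRGN had 2 peaks of 17.1 and 11.8 tags, CTSG 3 of 11.3 to 16.8 tags and RNASE2 1350 bases with 55.1 tags. At MPO the H2A.Z peak covered the start, where no acH2A.Z was called under DRB.

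In the siRNA pair, H2A.Z marked 0 of 10 genes in siNTC (7.34% of all genes, 14.5% of protein-coding genes, 21.2% of those above 100 CPM). In siMyc it marked 3 (11.3%, 22.0% and 31.8%), namely MPO, CTSG and MS4A3, each with 1 peak of 500 bases and 8.81 to 9.95 tags. All 3 were start peaks (10.2%), and 0 were end peaks (1.10%). acH2A.Z marked 3 in siNTC (28.6% and 60.2%), MPO, CTSG and CFD, and 5 in siMyc (18.7% and 38.1%), MPO, PRTN3, CTSG, SRGN and RNASE2. Start peaks were at 2 genes in siNTC (39.8%) and 4 in siMyc (21.4%), and end peaks at 0 (5.77%) and 1 (2.94%). SRGN, with an 8457-base domain under DMSO, had no peak in siNTC and 500 bases with 8.48 tags in siMyc, while 96.0% and 61.8% of the protein-coding genes above 100 CPM had one in those lists, and 2 and 4 of the 4 members in that class. The PRTN3 peak in siMyc, from 2417 to 740 bases before the start, covered nearly the stretch of its larger DRB peak. CFD in siNTC had 157 tags in 884 bases at a fold over control of 4.24. The acH2A.Z tags were scaled to the control in siNTC and left as they were in siMyc, so tags of this pair are not compared. With a fold over control of at least 8, the acH2A.Z counts were 0 in siNTC and 1 in siMyc, and the H2A.Z count in siMyc was 0.

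RIP asks which RNAs came down with each protein. The H2A.Z antibody gave peaks at 6 of 10 genes, MPO, PRTN3, AZU1, LYZ, CFD and SRGN, against 37.2% of all genes, 60.4% of protein-coding genes and 87.0% of those above 100 CPM. PRTN3 had the most tags, 185 in 1580 bases inside the gene and 65.3 in 500 bases near its end, and LYZ had 40.6 tags in 500 bases near its end. MPO had 4 peaks of 4.21 to 14.2 tags spread over the gene and SRGN 4 of 10.3 to 30.1 tags, none of the latter at the start. The acH2A.Z antibody gave peaks at 4 genes, AZU1, CFD, SRGN and MS4A3, against 58.2% of all genes, 79.7% of protein-coding genes and 77.6% of the abundant class, with 52.8 tags in the larger AZU1 peak and 4.09 to 6.29 tags in the others. The Tip60 antibody gave peaks at CFD and MS4A3, 2 genes, against 56.9% of all genes, 79.5% of protein-coding genes and 87.6% of the abundant class, each of 4.93 to 7.59 tags. Some of these peaks lay outside the annotated gene, among them the SRGN peak with acH2A.Z, 1487 to 987 bases before the start, and the CFD peak with H2A.Z, past the gene end. Over the gene itself the counts were 5, 3 and 2. A fold over control of at least 8 left 2 genes in the H2A.Z RIP list, and a window of 5 kb raised the acH2A.Z and Tip60 counts to 7 and 9. The share of all genes was not computed at 5 kb. All shares are over genes of any length, not matched to the members, which span 950 (RNASE2) to 17209 bases (SRGN).

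Of the 4 abundant members, MPO, PRTN3, CTSG and SRGN, 3 had an H2A.Z RIP peak, 1 (SRGN) an acH2A.Z RIP peak, upstream of the gene, and 0 a Tip60 RIP peak. CTSG, at 101 CPM, was without a peak in all 3 RIP lists, as were RNASE2 and ELANE. CTSG and RNASE2 were also among the members with most ChIP lists, 7 and 5 of 10, whereas ELANE had 0. MPO, with 6 ChIP lists, and SRGN, with 5, had peaks in 1 and 2 RIP lists. MS4A3, at 2.92 CPM, had peaks in both the acH2A.Z and the Tip60 RIP lists.

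**Figure D5:**
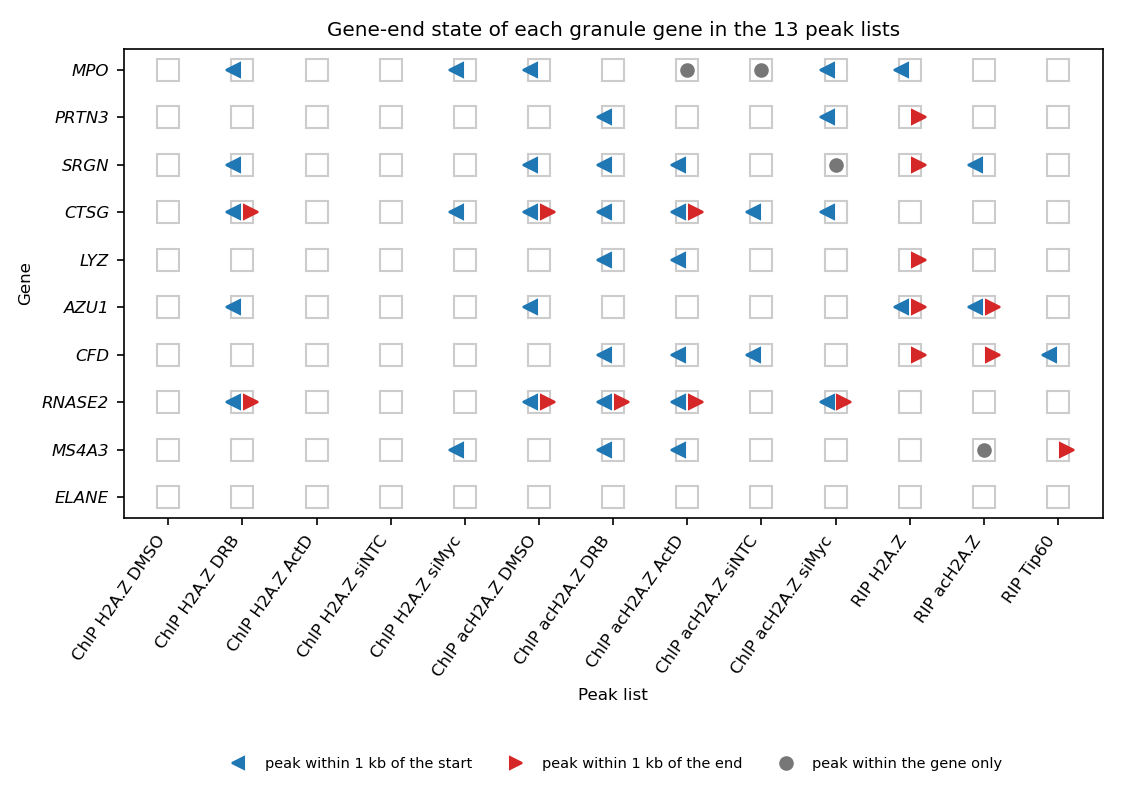
Peak state of each gene (rows) in the 10 ChIP and 3 RIP lists (columns), with a left-pointing blue triangle for a peak within 1 kb of the start, a right-pointing red one for the end and a grey circle for a peak elsewhere in the gene. The columns of H2A.Z under DMSO, ActD and siNTC are empty, as is the row of ELANE, and the H2A.Z DRB column has the 5 genes of the acH2A.Z DMSO column.

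Other genes of the same granule, of its making and of its control were taken from lists written for this purpose. The azurophil and lysosomal list also held EPX and PRG2, which are on the eosinophil, basophil and mast cell marker list as well. Of 30 other azurophil and lysosomal genes, 28 were measured under DRB, 2 higher and 16 lower, beside 57.4% lower among all genes, with a median of -1.11 against -1.32 for all genes, and centring left 5 and 2. Under ActD 27 were measured, 6 of them higher and 11 lower, beside 53.1% lower among all genes, around a median of -0.19 against -1.17 for all genes, or 13 and 5 centred. BPI, a bactericidal protein of the azurophil granule, stood at 100 CPM under ActD against 4.44 under DMSO, a ratio of 4.22 with an interval of 4.13 to 4.88, and at 1.6 CPM under DRB. CTSC, the peptidase that activates the granule proteases, went from 80 to 15 CPM under DRB, at -2.34, and the membrane protein CD63 from 16 to 0.0794 CPM under ActD, where the log2 interval of the ratio of counts ran from -12.97 to -5.16.

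Transcription factor genes known at granule promoters were measured in the same way. Of 10 measured, 0 were higher and 8 lower under DRB, and 1 and 6 under ActD, or 1 and 4, and 2 and 3, centred, beside the same shares of all genes lower, 57.4% and 53.1%. Their medians were -1.62 and -1.49, or -0.30 and -0.32 centred. CEBPA, which starts the granulocyte programme, had 48 CPM under DMSO, 2.65 under DRB and 0.794 under ActD, and CEBPE, which acts later, 120, 9.76 and 8.17. SPI1, which encodes PU.1, stood at 98.9 CPM under ActD against 83.8, and CEBPB rose from 0.624 to 4.6. Of 12 haem synthesis and MPO folding genes, 0 were higher and 5 lower under DRB, and 0 and 7 under ActD, while centring gave 5 and 1 under DRB and 1 and 3 under ActD. Among them were HSPA5, a chaperone of the endoplasmic reticulum, at 25.4 against 144 CPM under DRB and PDIA3 at 98.6 against 61.8 under ActD. Of the protease inhibitors, 0 were higher and 5 lower of 5 under DRB, and 2 and 4 of 6 under ActD, or 0 and 2, and 2 and 4, centred. Beside each of these lists, 57.4% of all genes were lower and 9.62% higher under DRB, and 53.1% and 15.9% under ActD. Centring put 3235 of 12252 genes higher and 2848 lower under DRB, and 3879 and 3345 of 12149 under ActD. The 15 genes of specific and gelatinase granules, which form after the promyelocyte stage, were nearly silent, with 1 measured under DRB and 0 under ActD, and LTF, CAMP, CRISP3 and ARG1 at 0 in all 5 RNA libraries.

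The genes whose pattern over the 5 RNA libraries was most like that of MPO, by Euclidean distance of centred log2 CPM among 7250 genes with a mean of 10 CPM or more, were LRP8 (0.138), ORC2 (0.18), HMGN1 (0.187), IDH2 (0.19) and TMX1 (0.207), against a median distance of 2.18. The members of 10 CPM or more lay farther off, PRTN3 at 0.859, SRGN at 0.935, CFD at 1.56, CTSG at 1.97, LYZ at 2.49, AZU1 at 2.91 and RNASE2 at 3.92. Below that mean, MS4A3 lay at 1.5 and ELANE at 0.454. ELANE was nearly without counts, so a short distance to MPO can also come from a flat profile near 0. The granule genes thus did not share 1 profile: RNASE2 and AZU1 lay farther from MPO than the median gene did, as did LYZ.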

How the data were processed

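HL-60 libraries of total RNA, nascent RNA, input DNA, ChIP and RIP were grouped by their titles and treatment labels, with 1 library per group. Per the submitters' processing notes, the build was GRCh38 and the tools included Trim Galore, cutadapt, FastQC, STAR 2.5.2b and HOMER, and the quantifier is not given in the sources used here. Lengths, expected counts, TPM and FPKM stand in the gene tables per the file headers, and the deposited expected counts and TPM were used. The nascent tables of DMSO, DRB and ActD pack these values into 1 deposited field, which was split. Per the file headers, the peak lists come from HOMER and give the deposited tag counts (a signal whose scale is not stated), score, fold over control and p-value of each peak, with every fold at least 4. The library used as control is not named. Tags were scaled to the control in 10 lists and the control to the tags in 3 (both siMyc lists and H2A.Z siNTC), per the file headers.

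Expected counts were scaled to CPM over all genes of a library, and log2 ratios taken after adding 1 CPM. Genes entered where the libraries compared averaged 1 CPM or more and summed to 20 counts or more. Exact binomial 95% intervals of the ratio of rounded counts leave out the added CPM, so a ratio of low counts can lie outside its interval. A count of 0 was read against a floor of 3 counts, 0.119 to 0.238 CPM in the RNA libraries. No p-value was computed. Without molecular identifiers reads are not independent molecules. Peaks were set against RefSeq gene positions (GRCh38.p14), and the strands of MPO, ELANE, LYZ and SRGN were set by hand from general knowledge. The ratio and its calls were tested on simulated data. Python 3.11.15, numpy 2.4.6, pandas 2.3.3, scipy 1.17.1 and matplotlib 3.10.9 were used.

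The genes, the gene lists and the comparisons were chosen with earlier results of these data known. Named genes were the 10 members, up to the 2 highest and 2 lowest measured genes of each list, and the 5 genes most like MPO. PRSS57, RNASE3, BPI under DRB and genes at 0 were named after their values were seen where they fall outside this rule. Alternatives were centring, rescaling, a pseudocount of 5 CPM, no filter, the TPM scale, windows of 0 and 5 kb and of 500 bases at gene ends, an overlap of 100 bases and a fold over control of at least 8. Protein sequences of the proteases were not used here.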

Additional observations from a re-analysis of the deposited data

How the results depend on the processing

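No paired analysis was possible because each group holds 1 library, and no library could be left out for the same reason. Of 397 values recomputed under the alternatives, 240 stayed within the limits set for them and 155 moved without a 2-fold call changing sign. Among 205 recomputed ratios of single members 33 changed sign, 14 with centring, 11 with rescaling and 8 on the TPM scale. Of the ratios past 2-fold, 2 changed sign, AZU1 to 0.17 and CFD to 0.93 in DMSO against untreated nascent RNA on the TPM scale. Centring changed the members higher and lower to 2 and 0 for DRB against DMSO, to 4 and 0 for ActD against DMSO, and the lower count to 1 for ActD against DRB. Of all genes, 3235 of 12252 were then higher and 2848 lower for DRB against DMSO. For ActD against DMSO these were 3879 and 3345 of 12149, and 3534 of 10430 were lower for ActD against DRB. Rescaling gave 1 higher for DRB against DMSO and 1 lower for ActD against DRB, beside 2011 of 12252 and 3685 of 10430 among all genes. The TPM scale gave 2 lower for ActD against DMSO, 1 lower for ActD against DRB, 0 higher and 1 lower for nascent against total RNA, and 6 higher and 0 lower for DMSO against untreated, and a pseudocount of 5 CPM gave 0 higher for nascent against total RNA. Among all genes the TPM counts were, in the same order, 6422 of 12149 lower and 3011 of 10430 lower. They were then 377 higher and 2109 lower of 13988, and 9379 higher and 663 lower of 13714. The pseudocount gave 360 of 13988 higher. Leaving out the filter on low values moved none of these counts by over 1.5 times.

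Among the peak counts, requiring a fold over control of at least 8 left 0 genes in H2A.Z siMyc (0 start peaks), 4 in acH2A.Z ActD (3 start peaks), 0 in acH2A.Z siNTC (0 start peaks), 1 in acH2A.Z siMyc (0 start and 0 end peaks) and 2 in H2A.Z RIP. A window of 5 kb raised the count to 5 in H2A.Z siMyc, 9 in acH2A.Z siNTC, 7 in acH2A.Z RIP and 9 in Tip60 RIP, and 0 kb gave 1 in H2A.Z siMyc. By smaller factors, 5 kb also raised H2A.Z DRB to 6, acH2A.Z DMSO and siMyc to 7 and H2A.Z RIP to 8. It raised acH2A.Z DRB and ActD to 10, which is every member, with the CFD peaks inside the window of ELANE. End windows of 500 bases gave 1 end peak in H2A.Z DRB, 1 start peak in acH2A.Z siNTC and 2 in acH2A.Z siMyc. The cause of these changes was not tested beyond the construction of each alternative. Depth limits MS4A3 and ELANE in every RNA comparison with the drugs, and the input counts throughout.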
